A study of Mus musculus with 8 samples.

Results

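The genes described here encode the core machinery that joins and divides mitochondria. They are the outer membrane fusion GTPases Mfn1 and Mfn2, the inner membrane fusion GTPase Opa1, the OPA1-cleaving proteases Oma1 and Yme1l1, the fission GTPase Dnm1l, and its outer membrane partners Mff, Fis1, Mief1 and Mief2. They were chosen by name, from what their proteins do, at a time when earlier results of these data were known, and each symbol was matched to 1 Ensembl identifier of the deposited count table. All 10 were found among its 32726 identifiers, and all 10 passed the filter on low counts, which left 16272 genes for testing.

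Poly-A RNA was sequenced from cultured mouse neurons labelled Nuak1 KO (4 libraries, KO1 to KO4) or WT (4 libraries, WT1 to WT4), with the aim of learning how the AMPK-related kinase NUAK1 acts on axonal mitochondria. All cultures came from embryos, were grown without serum and were collected after 5 days in vitro. The KO was constitutive, so the deletion was not restricted to neurons, and mice were kept on a C57Bl/6JRj background with 4 animals per genotype. Constitutive KO animals die at birth, and the cells compared here were taken before birth and grown apart from the brain. Cortex or hippocampus is the tissue given in the labels, while the series text speaks of cortical cells. The labels list no treatment for either genotype.

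Mitochondria form a network that is continually remodelled. Mitofusins tether and merge outer membranes, and OPA1 merges inner membranes and shapes cristae. Cleavage of OPA1 when mitochondria lose membrane potential shifts the balance away from fusion. In the opposite reaction, DRP1, the product of Dnm1l, is recruited from the cytosol by receptors on the outer membrane and constricts the organelle, and in neurons this balance is known to set the size of the mitochondria that enter axons.

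Nuak1 itself followed the labels. Its level was 1.96 to 2.72 CPM (counts of the gene divided by all counts of the library and scaled to a fixed total) in KO libraries and 51.6 to 82.6 CPM in WT libraries, a log2 fold change of −4.90 ± 0.13 (SE). Total counts ranged from 31247078 to 67155004. The libraries KO1 and WT1 stood apart from the other 6 on the first principal component, at −27.6 and −28.4 against 0.073 to 22.6, and the surrogate variable in the statistical model took its lowest values there, −0.565 and −0.617, with 0.045 to 0.377 elsewhere. KO3 and WT4 differed from the rest in sex-linked transcripts, with Xist at 1.82 and 2.76 CPM against at least 2754 CPM elsewhere. Each sequencing lane label (A or B) covered 2 libraries of each genotype, whereas of the strain labels, whose meaning is not explained, BJ occurred only in KO, BO and BQ only in WT, and BK in KO4, WT2 and WT4. All 11 neuron markers were above 0 in every library, and their sum was 4819 to 5610 CPM for KO libraries and 4936 to 5393 CPM for WT libraries.

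Markers of interneurons and of cells other than neurons were measured in both genotypes. Sums were 459 to 552 CPM (KO) and 446 to 535 CPM (WT) for oligodendrocyte precursors, 206 to 344 CPM (KO) and 188 to 306 CPM (WT) for interneurons, and 15.7 to 37.3 CPM (KO) and 8.71 to 48.5 CPM (WT) for endothelial cells and fibroblasts, whose markers included up to 2 at 0 in a library. Summed microglia markers lay between 16.3 and 68.3 CPM in KO and between 21.9 and 37.5 CPM in WT, with up to 2 of the 10 markers at 0 in a library. Of 8 tested microglia markers, 7 had estimates above 0 (53.4% of all tested genes) and 0 had an unadjusted p under 0.05 (10.5% of all tested genes), with a median log2 fold change of 1.35. Summed astrocyte markers lay between 838 and 1663 CPM in KO and between 879 and 1502 CPM in WT. Markers of progenitors and mitosis summed to 335 CPM in KO1 and 262 CPM in WT1, with 221 to 236 CPM in KO2 to KO4 and 124 to 222 CPM in WT2 to WT4, and 4 of 9 were higher in KO at an unadjusted p under 0.05, as were 4.71% of all tested genes. The part of these other cells in the levels of the fusion and fission genes was not tested. In bulk RNA, fewer cells of a type and less RNA per cell cannot be told apart.

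None of the 10 genes passed the adjusted test for a difference between KO and WT. The edgeR quasi-likelihood test with Benjamini-Hochberg adjustment (threshold 0.05) called 8 of 16272 genes, or 0.0492%, and 0 of the 10, with the same count of 0 under DESeq2 and limma-voom. At an unadjusted p under 0.05 it called 10.5% of all tested genes and 1 of the 10, the protease gene Yme1l1, which was lower in KO. Genes lower in KO at that threshold made up 5.78% of all tested. Of the 10 estimates, 6 were above 0 and 4 below, where 53.4% of all tested genes were above 0, with a median log2 fold change of 0.025 against 0.014 over all tested genes.

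The estimates were small and, with the surrogate variable fitted, comparatively precise. Log2 fold changes of KO against WT ran from −0.15 for Yme1l1 to 0.11 for Mief1. The median size of the change, regardless of direction, was 0.077 on the log2 scale against 0.106 for all tested genes, and the median standard error was 0.068 against 0.108. The widest 95% interval was that of Oma1, the gene with the lowest mean CPM, and reached 0.40 on the log2 scale to either side of its estimate. With 4 libraries per genotype, the edgeR p-values measure the spread between these 8 cultures that is left after the surrogate variable. Without that variable, standard errors ran from 0.099 for Mief1 to 0.260 for Mief2. The unadjusted p was then 0.405 for Yme1l1 and 0.340 for Opa1 in edgeR.

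**Figure D1:**
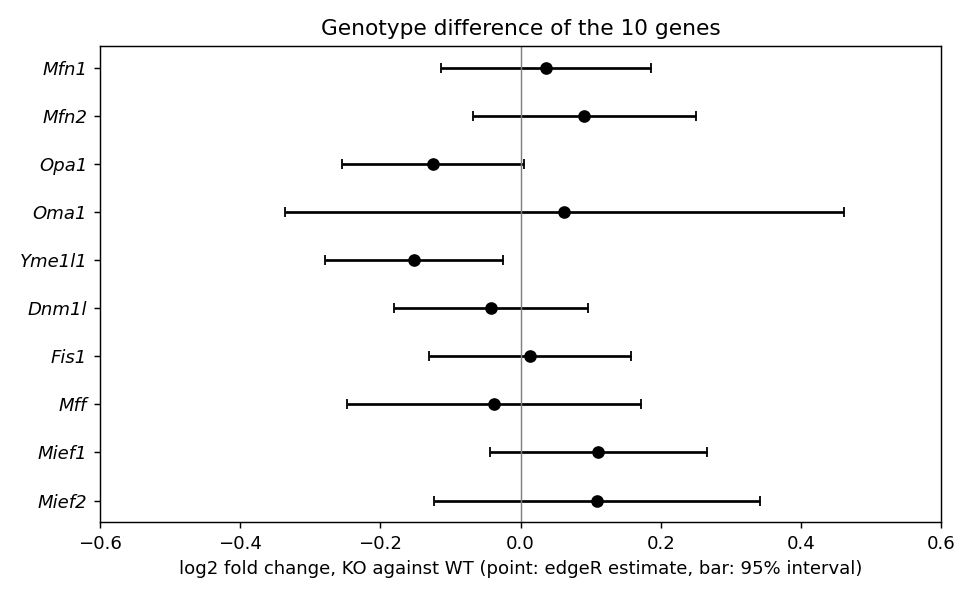
Log2 fold change of KO against WT for each of the 10 genes, on the horizontal axis, with the edgeR estimate as a point and its 95% interval as a bar. Every interval except that of Yme1l1 crosses 0, and Oma1 has the widest.

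Mfn1 (ENSMUSG00000027668, GRCm38 chr3:32529443-32579225) encodes one of the mitofusins, which tether the outer membranes of neighbouring mitochondria. Its level was 177, 150.1, 148 and 127 CPM in KO1 to KO4 and 174, 138, 115 and 142 CPM in WT1 to WT4. KO1 and WT1 were the highest library of their genotype, and the ranges of KO and WT overlapped over most of their width. Its mean was 150.3 ± 20.6 CPM for KO against 142 ± 24.3 CPM for WT (SD over 4 libraries), a log2 fold change of 0.036 ± 0.067 (SE) with an adjusted p of 0.877 in edgeR.

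Mfn2 (ENSMUSG00000029020, chr4:147873586-147904909) encodes the other mitofusin, which also lies at contacts between mitochondria and endoplasmic reticulum. It measured 137, 164, 171 and 181 CPM in KO1 to KO4 and 117, 142, 195 and 154 CPM in WT1 to WT4. Here KO1 and WT1 were the lowest libraries of their genotype, opposite to Mfn1, and WT3 was the highest of all 8. The difference between the means, 163 ± 18.8 CPM in KO and 152 ± 32.2 CPM in WT, was smaller than the spread among the WT libraries, with a log2 fold change of 0.091 ± 0.071 (SE) and an adjusted p of 0.672 in edgeR. A pseudogene on the opposite strand, Gm13156, lies within the span of Mfn2 and shares no exonic base with it.

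Opa1 (ENSMUSG00000038084, chr16:29579281-29663127) encodes the dynamin-related GTPase that fuses inner membranes. Its levels were 228, 189, 184 and 189 CPM in KO1 to KO4 and 238, 197, 199 and 199.96 CPM in WT1 to WT4. The highest KO library, KO1, exceeded 3 of the 4 WT libraries, so the genotypes overlapped, but KO1 lay below WT1 and the other 3 KO libraries all lay below the other 3 WT libraries. Its log2 fold change was −0.12 ± 0.058 (SE), with a 95% interval of −0.25 to 0.0050, an unadjusted p of 0.0578 and an adjusted p of 0.496 in edgeR. The means were 197 ± 20.7 CPM in KO and 208 ± 19.6 CPM in WT.

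Yme1l1 (ENSMUSG00000026775, chr2:23155442-23199260) encodes the ATP-dependent inner membrane protease that processes OPA1 under normal conditions. It was measured at 189, 141, 136 and 131 CPM in KO1 to KO4 and at 196, 149, 144 and 151 CPM in WT1 to WT4. As with Opa1, KO1 and WT1 were far above the rest, KO1 lay below WT1, and the other KO libraries lay below the other WT libraries without overlap. Its estimate was a log2 fold change of −0.15 ± 0.057 (SE), which is −9.99% with a 95% interval of −17.6 to −1.70%. The unadjusted p of 0.0239 placed it at rank 938 of the tested genes, and the adjusted p was 0.414 in edgeR.

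Opa1 and Yme1l1 were the only members lower in KO both between KO1 and WT1 and, without overlap, among the other 6 libraries. Of all tested genes, 2.71% met this description. It was written down after the values of these genes had been seen, so nothing is read from the 2 members that met it.

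Oma1 (ENSMUSG00000035069, chr4:103311875-103371869) encodes the protease that cleaves OPA1 when mitochondria lose membrane potential. It was one of the less abundant members, with 416 to 1025 counts per library, and measured 12.9, 13.5, 11.9 and 15.6 CPM in KO1 to KO4 and 13.99, 15.3, 8.73 and 12.3 CPM in WT1 to WT4. WT3 was the lowest library and the KO values lay inside the WT range except for KO4. The log2 fold change was 0.062 ± 0.177 (SE) with a 95% interval of −0.34 to 0.46 and an adjusted p of 0.925 in edgeR.

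Dnm1l (ENSMUSG00000022789, chr16:16312228-16359038), which encodes the fission GTPase DRP1, was the most abundant member. Its level was 338, 269.99, 259.9 and 274 CPM in KO1 to KO4 and 328, 259, 273 and 279 CPM in WT1 to WT4. KO1 and WT1 were again the highest library of each genotype, and the remaining 6 spanned only 259 to 279 CPM. The means were 285 ± 35.4 CPM in KO and 285 ± 30.3 CPM in WT, with a log2 fold change of −0.042 ± 0.062 (SE) and an adjusted p of 0.838 in edgeR.

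Mff (ENSMUSG00000026150, chr1:82724890-82752390) encodes a tail-anchored outer membrane receptor for DRP1 and a known substrate of AMPK. It measured 230.0, 188, 179 and 177 CPM in KO1 to KO4 and 207, 164, 218 and 179.8 CPM in WT1 to WT4. The WT libraries fell into a higher pair on lane A and a lower pair on lane B. KO1 lay above every WT library, and KO2 to KO4 sat close together inside the WT range. Its log2 fold change was −0.038 ± 0.094 (SE), with an adjusted p of 0.914 in edgeR. Mff exons share 195 bases with a transcript on the opposite strand, C430014B12Rik, which has no identifier in the table.

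Fis1 (ENSMUSG00000019054, chr5:136953275-136966234) encodes a small outer membrane protein that can bind DRP1. Its levels were 29.2, 44.8, 48.4 and 54.9 CPM in KO1 to KO4 and 28.6, 42.8, 54.6 and 48.3 CPM in WT1 to WT4. KO1 and WT1 lay well below the other 6, and among the other 6 the KO and WT values interleaved. With a log2 fold change of 0.013 ± 0.064 (SE) and an adjusted p of 0.960 in edgeR, Fis1 had the smallest estimated difference of the 10.

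Mief1 (ENSMUSG00000022412, chr15:80233964-80253372) and Mief2 (ENSMUSG00000018599, chr11:60728398-60732951) encode related adaptors of the outer membrane that recruit DRP1. Mief1 measured 40.9, 41.7, 39.1 and 37.2 CPM in KO1 to KO4 and 31.7, 35.4, 38.9 and 37.96 CPM in WT1 to WT4. The 3 highest values were all from KO libraries, yet KO4 lay below 2 WT libraries, and the log2 fold change of 0.11 ± 0.069 (SE) had an adjusted p of 0.594 in edgeR. Mief2 measured 11.2, 13.8, 18.1 and 19.6 CPM in KO1 to KO4 and 8.32, 16.8, 17.2 and 16.3 CPM in WT1 to WT4. WT1 was the lowest library, at 260 counts and a 95% Wilson interval of 7.37 to 9.40 CPM for counting error, and KO1 was the lowest of the KO libraries. The log2 fold change of Mief2 was 0.11 ± 0.104 (SE), with an adjusted p of 0.735 in edgeR. A microRNA gene on the same strand, AL596215.1, overlaps the span of Mief2, shares no exonic base with it and has its own identifier in the table.

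**Figure D2:**
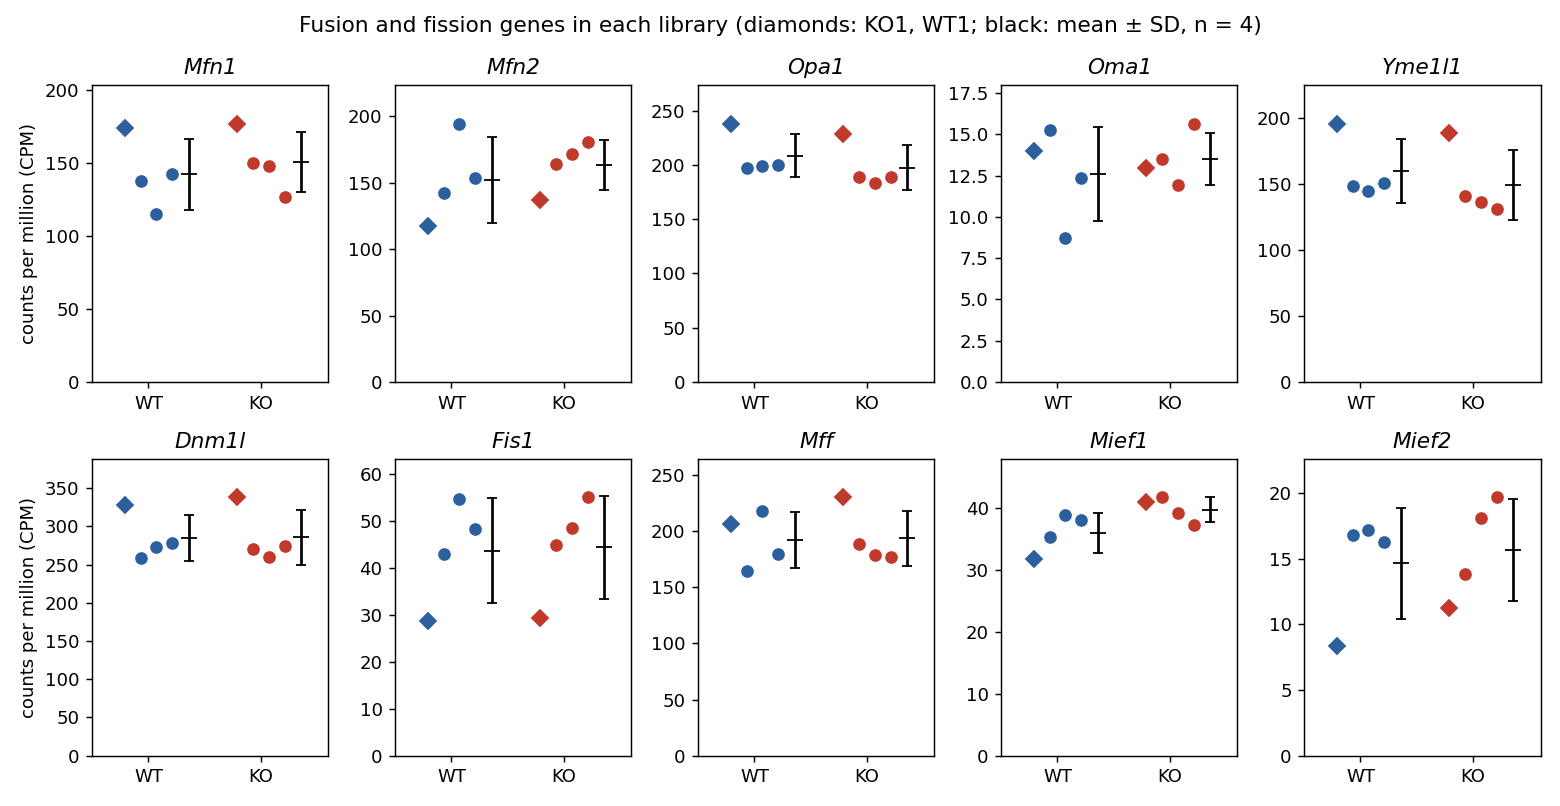
Level of each of the 10 genes in CPM in the 4 KO and 4 WT libraries, with 1 point per library, diamonds for KO1 and WT1, and the mean ± SD of each genotype. The genotypes overlap for every gene, while KO1 and WT1 sit together at the top or at the bottom of several panels.

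No member had KO and WT ranges that were fully apart, which 2.4% of all tested genes had. The genotype difference was also compared between the lanes by an interaction term. At the adjusted threshold this called 0% of tested genes, and none of the 10. At an unadjusted p under 0.05 it called 8.25% of tested genes and 1 of the 10, Mief2, for which lane B minus lane A was −0.42 on the log2 scale (unadjusted p of 0.0319 and adjusted p of 0.592 in edgeR). In separate fits of each lane, Mief2 gave 0.27 for lane A and −0.12 for lane B. Opa1 and Yme1l1 had estimates below 0 on both lanes. For Opa1 they were −0.094 ± 0.244 (SE) on lane A and −0.16 ± 0.082 on lane B. For Yme1l1 they were −0.12 ± 0.309 and −0.18 ± 0.083. These fits held 2 libraries per genotype and no surrogate variable, and on lane A the SE of both genes was larger than the estimate. For Oma1 the lanes gave 0.30 and −0.20.

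For every member except Mief1, the SD among libraries of a genotype was larger than the estimated difference between genotypes. For Mief1 that SD was 0.088 on the log2 scale against a difference of 0.11. KO1 and WT1 together differed from the other 6 libraries by a log2 difference of −0.78 for Mief2, −0.74 for Fis1 and −0.38 for Mfn2. In the same pair Yme1l1 was higher by 0.46, Mfn1 by 0.39, Dnm1l by 0.33, Opa1 by 0.29 and Mff by 0.27 on the log2 scale. Oma1 and Mief1 differed little, by 0.10 and −0.070. Fusion genes thus appeared on both sides, with Mfn2 low and Mfn1 and Opa1 high, and fission genes did too, with Fis1 and Mief2 low and Dnm1l and Mff high. KO1 and WT1 carry different strain labels and different genotypes but share lane A, as do KO4 and WT3, whose surrogate variable was 0.269 and 0.377.

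For 7 of the 10 genes both KO1 and WT1 lay outside the range of the other 6 libraries on the same side, the exceptions being Oma1, Mff and Mief1. The same held for 51.2% of all tested genes, and the median size of the pair's difference was 0.352 on the log2 scale for the members against 0.358 for all tested genes. Departures of this size were thus spread over the whole table. Ranked by the size of that difference, Mief2 exceeded 83.0% and Fis1 81.2% of tested genes, and Mief1 9.67%.

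**Figure D3:**
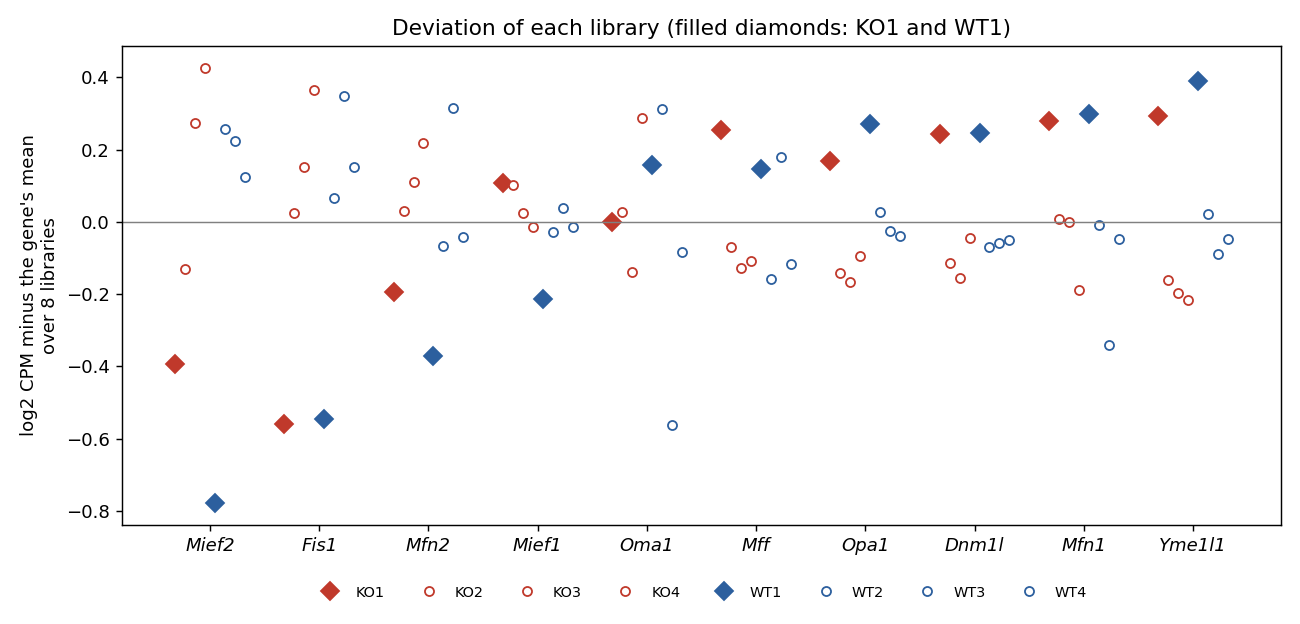
Log2 CPM of each library, scaled by TMM, minus the gene's mean over all 8 libraries, for the 10 genes ordered by the difference of KO1 and WT1 from the other 6. KO1 and WT1 share the sign of their deviation for the genes that depart most, with Mief2, Fis1 and Mfn2 low and Yme1l1 and Mfn1 high.

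Levels between genes were compared per kilobase of merged exons. Dnm1l was highest at 68.1 ± 7.29 CPM per kilobase (SD, n = 8), followed by Mff at 47.1 ± 5.59, and each exceeded the next gene in 8 of 8 libraries. Mfn2 at 30.4 ± 4.84, Opa1 at 25.8 ± 2.49, Fis1 at 25.6 ± 5.96 and Mfn1 at 24.8 ± 3.61 CPM per kilobase were neighbours whose differences lay within their spread over libraries. Mfn1 exceeded Yme1l1, at 19.3 ± 3.01, in 8 of 8 libraries. Yme1l1 in turn stood above the adaptor Mief1 by 1.49 ± 0.29 (SD) on the log2 scale.

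The lowest group held Mief1 at 6.83 ± 0.574, Oma1 at 6.08 ± 1.02 and Mief2 at 5.58 ± 1.40 CPM per kilobase, and their order was not separable, with 5 of 8 libraries above the next gene at each step. With these merged exon lengths, the receptor Mff was measured at a higher level per kilobase than each of the other DRP1 partners. The OPA1 protease Yme1l1 was measured at a higher level than Oma1. The lengths come from another annotation than the counts, and the order under other lengths was not tested. Over the 8 libraries the highest level of Mief2 was 2.36 times its lowest, and for Opa1, Dnm1l and Mief1 this ratio was 1.30, 1.31 and 1.31.

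Ratios between functionally paired members were taken within each library, which removes the library total. The ratio of Mfn2 to Mfn1 per kilobase was 0.881, 1.24, 1.32 and 1.62 in KO1 to KO4 and 0.768, 1.17, 1.93 and 1.23 in WT1 to WT4. Mfn1 was therefore the higher mitofusin in KO1 and WT1, and Mfn2 in the other 6. The log2 difference between genotypes in this ratio was 0.033, far less than the spread among libraries, with a p of 0.914 in an exact two-sided permutation test.

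The ratio of Opa1 to Dnm1l was the steadiest, at 0.359, 0.372, 0.376 and 0.365 in KO1 to KO4 and 0.385, 0.405, 0.387 and 0.381 in WT1 to WT4. All 4 KO libraries lay below all 4 WT libraries, KO1 and WT1 included, by a log2 difference of −0.082 (−5.53%). How often ratios of other gene pairs separate the genotypes in this way was not measured. Its exact two-sided permutation p was 0.0286, the smallest that 4 against 4 libraries can give, and 0.114 after Benjamini-Hochberg adjustment over the 4 ratios. The SD among libraries was 0.029 in KO and 0.038 in WT on the log2 scale, and the counting error of the difference was 0.015.

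The ratio of Oma1 to Yme1l1 was 0.256, 0.357, 0.327 and 0.446 in KO1 to KO4 and 0.267, 0.384, 0.226 and 0.306 in WT1 to WT4, with an exact permutation p of 0.4. The ratio of Mief2 to Mief1 was 0.559, 0.675, 0.943 and 1.08 in KO1 to KO4 and 0.535, 0.966, 0.902 and 0.874 in WT1 to WT4, with an exact permutation p of 0.971. KO1 and WT1 gave the lowest values of the Mief2 to Mief1 ratio in their genotypes.

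**Figure D4:**
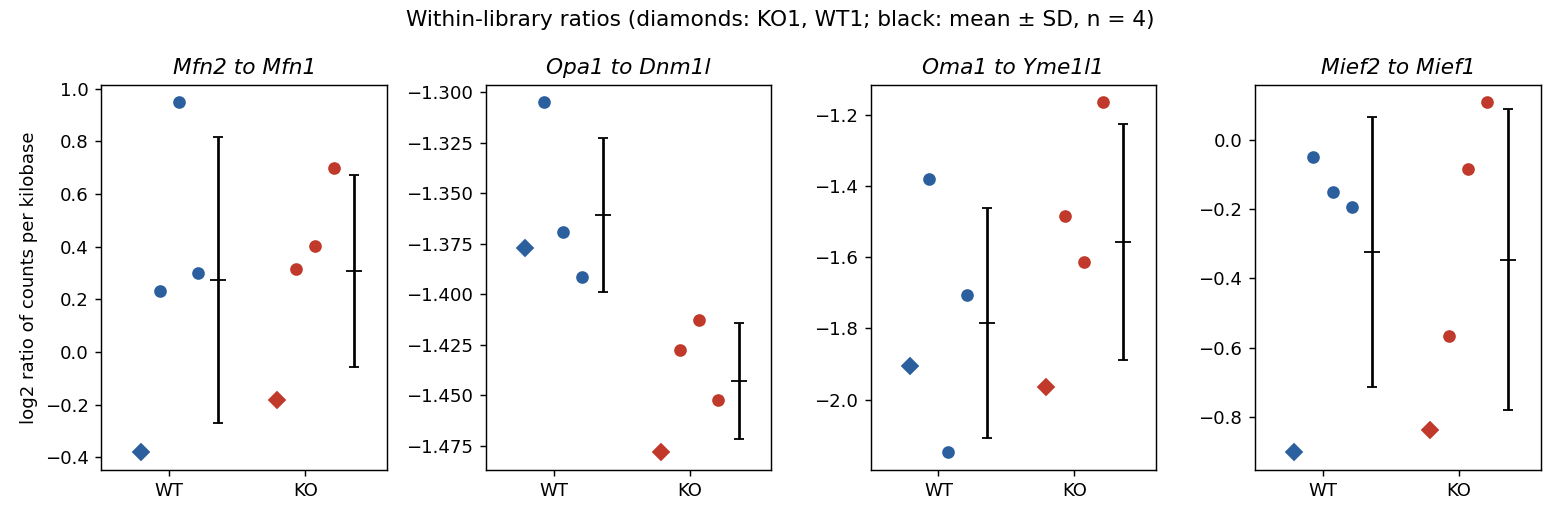
Log2 ratio of counts per kilobase within each library for Mfn2 to Mfn1, Opa1 to Dnm1l, Oma1 to Yme1l1 and Mief2 to Mief1, with 1 point per library, diamonds for KO1 and WT1, and the mean ± SD of 4 libraries per genotype. Each panel has its own scale, and KO and WT are apart only for Opa1 to Dnm1l, where the difference of −0.082 is small beside the spread in the other panels.

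Genes that act around the core machinery were examined as 6 companion lists. Of 56 genes, 55 were tested, 0 passed the adjusted threshold in edgeR, and 4 higher and 1 lower in KO had an unadjusted p under 0.05, a share close to the 10.5% of all tested genes. The median log2 fold change over the 55 was 0.041. Among 5 accessory genes of fusion, Miga1, whose product acts in outer membrane fusion, gave −0.17 ± 0.072 (SE) with an unadjusted p of 0.0411 and an adjusted p of 0.464 in edgeR, and Slc25a46 had the highest level. None of 8 accessory genes of OPA1 processing had an unadjusted p under 0.05, and the most abundant, Afg3l2, a subunit of the matrix AAA protease, averaged 65.6 CPM in KO and 65.3 CPM in WT.

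Among 10 accessory genes of fission, Mtfr1l gave a log2 fold change of 0.13 with an adjusted p of 0.471 in edgeR, and the most abundant, Gdap1, averaged 225 CPM in KO and 220.5 CPM in WT. In the list of 9 ubiquitin and mitophagy genes, Pink1, the kinase that marks depolarised mitochondria, ranged from 49.8 to 110.1 CPM in KO and from 36.5 to 108 CPM in WT. The log2 fold change of Pink1 was 0.21 ± 0.061 (SE), with an unadjusted p of 0.00618 and an adjusted p of 0.345 in edgeR. Of 11 genes of the MICOS complex and its partners, which hold cristae junctions, 10 had estimates above 0, against 53.4% of all tested genes, with Chchd6 at 0.20 (adjusted p of 0.405) and Micos10 at 0.17 (adjusted p of 0.377), and the most abundant, Immt, at 0.023.

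The last list held transcripts often used as a gauge of mitochondrial content. None of the 12 tested had an unadjusted p under 0.05, which 10.5% of all tested genes had, and their median log2 fold change was 0.028 against 0.014 over all tested genes. Cs, which encodes citrate synthase and had the highest level, averaged 333 ± 7.65 CPM for KO against 302 ± 19.1 CPM for WT (SD over 4 libraries), a log2 fold change of 0.11 with an adjusted p of 0.547 in edgeR. Tomm20 was not analysed here.

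The genotype estimates were recomputed under 23 other settings, and no member passed the adjusted threshold in any of them. Opa1 and Yme1l1 stayed below 0 and Mfn2 and Mief1 above 0 in all 23. Mfn2 fell to 0.014 on lane A alone, and Mief1 to 0.0069 with the strain label. All settings reuse these 8 libraries or part of them, so an unchanged sign is not repeated support. Yme1l1 ranged from −0.20 to −0.11 and had an unadjusted p under 0.05 in 12 of the 23, and without KO1 and WT1 it was −0.15 with an unadjusted p of 0.0715 in edgeR. Opa1 ranged from −0.16 to −0.088 and was −0.12 without that pair. Omitting the pair brought Mfn2 to 0.042, Mief1 to 0.039 and Mief2 to 0.0067. Each of the other 6 genes changed sign under at least 1 setting.

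**Figure D5:**
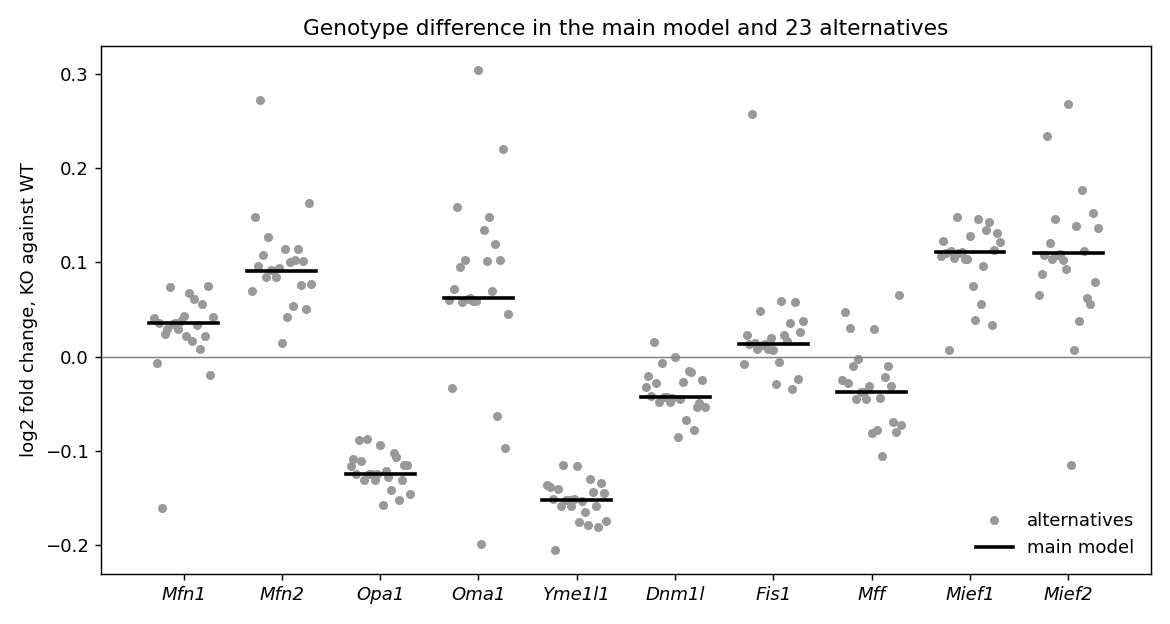
Log2 fold change of KO against WT for each gene under the reported model (black line) and 23 other settings (grey points). All points lie below 0 for Opa1 and Yme1l1 and above 0 for Mfn2 and Mief1, and Oma1 spreads most, from −0.20 to 0.30.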

How the data were processed

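The authors deposited raw counts per Ensembl gene, 1 column per library. According to their methods and processing notes, reads from stranded poly-A libraries were trimmed with Cutadapt 1.10, ribosomal reads were discarded, and the rest were aligned to mm10 with STAR 2.5.3a and counted with HTSeq 0.6.1p1 in union mode on an Ensembl annotation. Reads that align to several places or overlap several genes are left out of such counts. Whether strand was used in counting is not given in the sources used here, and the labels and the methods differ in read length and layout. The authors fitted DESeq2 with surrogate variables.

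Here the deposited counts were filtered with filterByExpr, scaled by TMM and tested with the edgeR 4.0.16 robust quasi-likelihood test in R 4.3.3, with genotype and 1 surrogate variable (sva 3.50.0). DESeq2 1.42.0 and limma 3.58.1 were alternatives. The fitting code was tested on simulated data. Benjamini-Hochberg adjustment ran over all 16272 tested genes. CPM were computed from total counts, and per-kilobase levels used merged exon lengths of the GENCODE M1 annotation, as lengths only. Of 32726 identifiers, 23260 had a symbol and 20916 a GRCm38 position (the same assembly as mm10), from a RefSeq gene table. Overlaps with other transcripts were read from GENCODE M1.

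The 10 genes and the companion and marker lists were chosen with earlier results of these data known. Named beside the 10 were Nuak1 and, of each companion list, up to 3 genes with the smallest unadjusted p under 0.05 and the gene with the highest level. Depth was 31247078 to 67155004 counts per library. Counting intervals are 95% Wilson intervals that cover counting error alone, the libraries having no molecular identifiers. Groups followed the genotype labels. Alternatives covered the surrogate variables, lane, strain label, replicate block, normalization, filter, tool and left-out libraries.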

Additional observations from a re-analysis of the deposited data

Results flagged for a closer look

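Within a genotype, a library was examined for standing apart by Dixon's test at its 95% critical value for 4 values. Of 28 groups examined, 4 held such a library, where chance alone would give 1.4. Mief2 in WT1, at 8.32 CPM, lay below the other WT libraries. Opa1 stood out in both genotypes, at 228 CPM in KO1 and 238 CPM in WT1, above the rest of each. Yme1l1 in WT1, at 196 CPM, lay above the other WT libraries. All 4 values come from KO1 or WT1, the pair that also stood apart over the whole table.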

How the results depend on the processing

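Under 23 other settings no member passed the adjusted threshold, and the median log2 fold change of the 10 ranged from −0.057 to 0.061. With no surrogate variable Fis1 was −0.0077, and with 2 surrogate variables Mfn1 was −0.0071, Oma1 −0.033 and Mff 0.047. With the strain label as a term Mfn1 was −0.16, Dnm1l 0.016 and Mff 0.030, and without a change of sign Fis1 moved to 0.26, Mfn2 to 0.27, Mief2 to 0.23, Oma1 to 0.16 and Mief1 to 0.0069. On lane B alone Oma1 was −0.20, Fis1 −0.029, Mff 0.029, Mief2 −0.12 and the ratio of Oma1 to Yme1l1 −0.0048. On lane A alone the ratio of Mfn2 to Mfn1 was −0.026 and that of Mief2 to Mief1 0.16. Omitting KO1 and WT1 gave −0.0052 for Fis1 and −0.022 for Mfn2 to Mfn1. Leaving out 1 library at a time gave −0.020 to 0.075 for Mfn1, −0.097 to 0.22 for Oma1, −0.034 to 0.058 for Fis1, −0.11 to 0.065 for Mff, −0.19 to 0.26 for Mfn2 to Mfn1, −0.21 to 0.14 for Mief2 to Mief1 and −0.092 to −0.064 for Opa1 to Dnm1l. It also moved Mfn2 between 0.050 (without WT2) and 0.16 (without WT3, unadjusted p of 0.0141 in edgeR), Mief1 between 0.034 (without WT1) and 0.14 (without KO4), Mief2 between 0.038 (without KO1) and 0.18 (without KO2), Dnm1l between −0.078 (without KO4) and −0.015 (without KO2), and the ratio of Oma1 to Yme1l1 between 0.097 (without KO4) and 0.36 (without KO1). Opa1 and Yme1l1 moved by less than 1.5 times. The cause was not tested.

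The ratio of Opa1 to Dnm1l stayed below 0 throughout but could not pass the threshold with fewer libraries, at −0.092 on lane A, −0.072 on lane B, −0.076 omitting KO1 and WT1 and −0.10 omitting KO3 and WT4. The replicate block gave −0.082 with an exact permutation p of 0.125, the smallest that 4 pairs allow. The labels do not say whether KO and WT numbers pair the cultures. Deviations of same-numbered libraries from their genotype means correlated at 0.800 for number 1 and at 0.0023 to 0.249 for the rest. Only KO1 correlated best with its own number. As KO1 and WT1 stood apart over the whole table, these correlations cannot show whether cultures were paired.

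Over all tested genes, 8 calls became 4 with no surrogate variable, 17 with 2, 15 with lane as a term, 1 with the strain label, 3 with the replicate block, 50 with no filter, 2 with at least 10 counts in all libraries, 169 with DESeq2, 0 on lane A, 99 on lane B, 3 omitting KO1 and WT1 and 3 omitting KO3 and WT4. Leaving out 1 library gave 3 to 114 calls, the highest without WT3. Members with an unadjusted p under 0.05 numbered 1 as reported, 2 with 2 surrogate variables or lane as a term, and 0 with no surrogate variable, the strain label, the replicate block, library totals only, either lane alone, or omitting KO1 and WT1 or KO3 and WT4. Leaving out 1 library gave 0 to 2. Counting error on the log2 difference of the ratios was 0.015 for Opa1 to Dnm1l and 0.051 for Mief2 to Mief1, the lowest and highest of the 4 ratios.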
